A study of Mus musculus with 8 samples.

Results

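The nuclear-encoded genes of the mitochondrial respiratory chain were examined in HL1 cells, a mouse atrial cardiomyocyte line. Members were taken by name and position. An assembled locus of the short-read gene table counted as a member when the same-strand GENCODE M21 gene sharing most of its span, at a Jaccard overlap of at least 0.5, was protein-coding with a symbol starting Nduf, Uqcr, Atp5 or Cox4 to Cox8, or was Sdha, Sdhb, Sdhc or Sdhd. This gave 84 members among the 65265 genes of the table. They were 37 complex I subunits, 8 complex I assembly factors, 3 complex II, 8 complex III, 14 complex IV and 14 complex V genes, grouped by name. The rule used no measured level or fold change, but it needs a locus assembled from the reads of these data.

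HL1 cells were grown in supplemented Claycomb medium with norepinephrine, and their nuclei were extracted with urea and NP-40 substitute and centrifuged. The supernatant is the nucleoplasm fraction and the pellet the chromatin fraction. Short-read libraries were made from the chromatin and nucleoplasm extracts of 3 independent, unmodified cultures, and 2 long-read libraries were made from chromatin RNA. Both fractions thus share cultures. The main fit did not pair them, and a fit with the replicate number as a block was an alternative. The fraction field of the labels reads chromatin for the nucleoplasm libraries as well, while their titles read nucleoplasm, and the titles were followed. Replicate 3 stood apart from the others in both fractions. Of 11 atrial cardiomyocyte markers, 10 were lowest and Gata4 highest in replicate 3 of each fraction, and all 4 fibroblast markers were highest there. For Myl4, the atrial myosin light chain, the chromatin replicates had 10759, 12770 and 3184 normalized counts, and for the collagen gene Col3a1 18906, 21910 and 56749.

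The respiratory chain carries out oxidative phosphorylation in the inner mitochondrial membrane. Complexes I and II feed electrons from NADH and succinate to ubiquinone, complex III passes them to cytochrome c, complex IV reduces oxygen, and complex V, the ATP synthase, uses the resulting proton gradient to make ATP. Most subunits are encoded in the nucleus, so their messenger RNAs must leave the chromatin and the nucleus to be translated, and heart muscle is among the tissues richest in these complexes.

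The promoters of such genes are known for sites of a few shared regulators, among them NRF1, the ETS factor GABP, YY1 and the estrogen-related receptors. RefSeq promoter windows on GRCm38.p6, from 250 bases before to 50 bases after each start, were matched for 66 of the 84 members and gave 71 windows. Both strands were searched for GCGCANGCG for NRF1, CCGGAAG for ETS factors, AAGATGGC for YY1 and TCAAGGTCA for estrogen-related receptors, none of which contains another. The NRF1 motif was in 21 of the 71 windows (29.6%), against 6.24% of all 32807 windows of the same length. The ETS motif was in 15 (21.1%) against 8.86%, the YY1 motif in 10 (14.1%) against 2.74%, and the receptor motif in 1 (1.41%) against 0.424%. The median share of G and C was 58.3% in the windows of these genes and 52.7% in all windows, and its part in these shares was not tested. The windows below are shown because Cox6a1, Ndufb4 and Sdha held several matches, and because Atp5g2 and Atp5g3, which encode the same mature ring subunit, held 1 NRF1 match each and had fold changes far apart, Atp5g3 also holding the single receptor match. Capitals mark the matches to the NRF1 motif in all 5 windows and, in Cox6a1, also the ETS motif and, in Atp5g3, the receptor motif. The ETS match of Cox6a1 and both the NRF1 and the receptor match of Atp5g3 lie on the other strand.
Cox6a1 (chr5:115348909-115349208, minus strand): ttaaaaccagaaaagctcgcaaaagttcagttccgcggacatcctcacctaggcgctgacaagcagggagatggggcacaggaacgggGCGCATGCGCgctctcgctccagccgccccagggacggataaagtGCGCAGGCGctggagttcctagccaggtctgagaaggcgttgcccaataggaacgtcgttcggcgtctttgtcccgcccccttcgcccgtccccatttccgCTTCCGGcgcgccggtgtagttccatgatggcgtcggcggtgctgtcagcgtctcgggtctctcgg
Ndufb4 (chr16:37654319-37654618, minus strand): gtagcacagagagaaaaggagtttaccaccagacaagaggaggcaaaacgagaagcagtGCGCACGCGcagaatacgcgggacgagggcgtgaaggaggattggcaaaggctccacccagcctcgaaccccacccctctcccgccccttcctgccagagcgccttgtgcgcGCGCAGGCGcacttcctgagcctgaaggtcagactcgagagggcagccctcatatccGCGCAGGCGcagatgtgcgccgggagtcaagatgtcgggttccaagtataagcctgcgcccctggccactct
Sdha (chr13:74350191-74350490, minus strand): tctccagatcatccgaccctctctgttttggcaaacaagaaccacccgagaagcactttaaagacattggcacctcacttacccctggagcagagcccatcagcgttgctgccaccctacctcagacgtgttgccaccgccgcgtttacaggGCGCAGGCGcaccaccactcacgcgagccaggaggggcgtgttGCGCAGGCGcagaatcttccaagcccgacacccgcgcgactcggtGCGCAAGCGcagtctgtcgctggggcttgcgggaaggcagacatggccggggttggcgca
Atp5g3 (chr2:73911277-73911576, minus strand): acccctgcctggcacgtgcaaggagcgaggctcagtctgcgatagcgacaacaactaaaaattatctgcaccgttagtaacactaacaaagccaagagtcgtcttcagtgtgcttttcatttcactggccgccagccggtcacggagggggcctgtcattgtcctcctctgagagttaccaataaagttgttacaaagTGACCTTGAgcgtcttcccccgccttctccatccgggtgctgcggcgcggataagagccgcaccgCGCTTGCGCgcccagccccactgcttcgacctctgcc
Atp5g2 (chr15:102670998-102671297, minus strand): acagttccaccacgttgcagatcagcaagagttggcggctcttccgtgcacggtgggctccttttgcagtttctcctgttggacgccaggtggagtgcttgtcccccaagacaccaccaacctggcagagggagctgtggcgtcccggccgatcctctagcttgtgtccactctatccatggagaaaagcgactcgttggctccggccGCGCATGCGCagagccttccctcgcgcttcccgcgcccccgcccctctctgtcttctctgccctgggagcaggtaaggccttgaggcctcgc

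The chromatin fraction held less of nearly every respiratory chain RNA than the nucleoplasm. Summed over the members, the normalized counts made up 0.158%, 0.187% and 0.150% of chromatin replicates 1 to 3 and 0.628%, 0.552% and 0.720% of nucleoplasm replicates 1 to 3. Of the 84 members, 79 were lower in chromatin and none was higher (limma on log2(normalized count + 1), Benjamini-Hochberg adjusted p under 0.05 over 35830 genes tested). Lower calls made up 20.9% of all genes tested and 43.4% of protein-coding assembled loci, and higher calls 26.9% and 25.5%. At an unadjusted p under 0.05, 0 members were higher, and edgeR and DESeq2 on recovered reads also called 0 higher and 79 lower. The median log2 fold change of the members, chromatin against nucleoplasm, was -2.14 (quartiles -2.51 and -1.60), beside 0.38 for all genes tested and -0.32 for protein-coding assembled loci.

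More than 4 fold lower were 49 members, where 4.9% of all genes and 6.06% of protein-coding loci passed that limit. In 81 members every chromatin library lay below every nucleoplasm library, and this was so for 23.8% of all genes and 47.6% of protein-coding loci. All 84 members were tested and none was lost to the filter on low values. 82 were above 0 in all 6 libraries and 80 had a mean of at least 100 normalized counts. Protein-coding loci above that mean were lower in 47.3% and higher in 25.6%, more than 4 fold lower in 6.53% and without overlap below in 51.6%. The 4 members below that mean were Ndufa4l2, Cox7b2, Cox8b and Cox4i2, and these with Atp5s were the 5 members not called. Normalized counts are relative to the other RNA of each library. They were scaled by size factors and not by library totals, so they are neither amounts per cell nor exact shares of a fraction. For differences between replicates of a fraction, fewer cells and less RNA per cell cannot be told apart in bulk RNA.

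**Figure D1:**
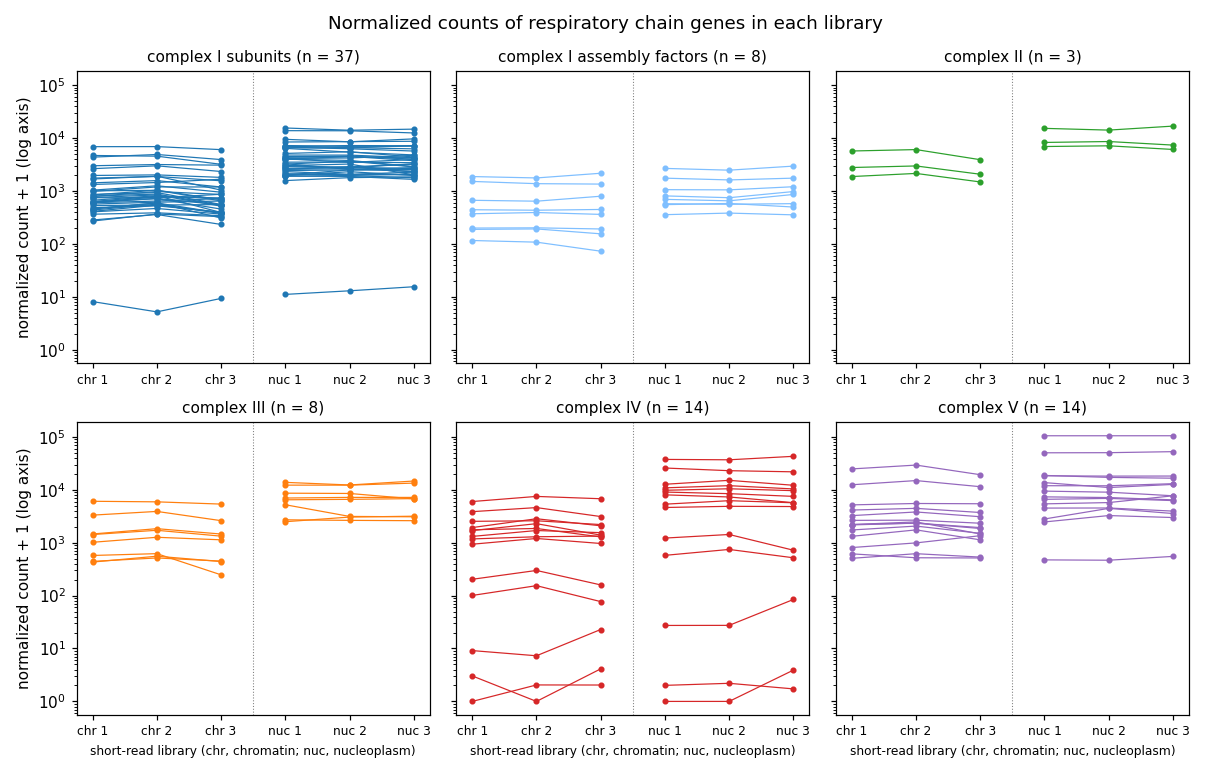
Normalized count + 1 (log axis) of each of the 84 members in the 3 chromatin (chr) and 3 nucleoplasm (nuc) short-read libraries, 1 panel for each complex, with each line joining the libraries of 1 gene within a fraction. Nearly every gene sits lower in the chromatin libraries, and the complex IV panel holds 3 genes at low levels in all 6.

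The size of these differences depended on how the fractions were scaled. External ERCC standards, added to each fraction before RNA extraction, made up 0.193% to 0.209% of the chromatin and 0.297% to 0.339% of the nucleoplasm libraries. Scaled to the standards, 66 members were lower and 1 was higher, 2 were more than 4 fold lower, and the median log2 fold change was -1.41, while the median of all genes moved from 0.38 to 0.83. Over all genes the calls went from 7477 lower and 9632 higher to 3109 lower and 12460 higher under that scaling. The values below are on the deposited scale.

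The chromatin libraries differed in the same order for most members. Chromatin replicate 2 was the highest chromatin library for 66 of the 84 members and replicate 3 the lowest for 55. In nucleoplasm no library led in this way, replicates 1, 2 and 3 being highest for 26, 29 and 29 members and lowest for 22, 24 and 38. The median coefficient of variation was 13.5% in chromatin and 7.76% in nucleoplasm over the 80 members with a mean of at least 100. Between same-numbered libraries the median log2 ratio of the members was -2.14, -1.96 and -2.27 for numbers 1 to 3, and 81 members were lower in chromatin in all 3. The part of the marker differences of replicate 3 in these values was not tested. With replicates 1 and 2 alone, an alternative chosen after the markers were seen, 78 members were lower, none was higher, 44 were more than 4 fold lower and the median log2 fold change was -2.05. Over the 33225 genes tested in that fit, 8445 were lower and 10363 higher, with a median of 0.45. Of the members named below, Atp5g2 (-0.60) and Ndufaf7 (-0.22) were then no longer called and Cox7b2 (-1.74) was.

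Complex I, the NADH dehydrogenase, was represented by 37 genes grouped as subunits by name, Ndufa4 and Ndufa4l2 among them. Of these, 36 were lower in chromatin and 25 by more than 4 fold, with a median log2 fold change of -2.23.

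The most lowered subunit was Ndufa8 (chr2:36036326-36049292), an accessory subunit of the intermembrane space. Its normalized counts were 458, 594 and 307 in chromatin and 3022, 2739 and 3266 in nucleoplasm, without overlap, for a log2 fold change of -2.78 ± 0.24 (SE; limma adjusted p = 2.34e-04). Ndufb6, a membrane arm subunit, had 601, 643 and 719 counts in chromatin and 4135, 4203 and 4707 in nucleoplasm. Its log2 fold change was -2.73 ± 0.10 (SE), with closer chromatin libraries. Ndufb11 on the X chromosome (chrX:20615326-20617564) followed at -2.71 ± 0.18 (SE), with chromatin counts of 682 to 1035 and nucleoplasm counts of 4802 to 6392. Ndufa4, named for complex I but since assigned to complex IV, stood beside them at -2.64.

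At the other end was Ndufv2, the core subunit with a binuclear iron-sulfur cluster. It measured 4688, 4550.4 and 3188 in chromatin and 7001, 6588 and 6255 in nucleoplasm, so that the fractions did not overlap while differing by only 1.60 fold. The log2 fold change of Ndufv2 was -0.69 ± 0.16 (SE; limma adjusted p = 0.0143) and turned to 0.04 when scaled to the ERCC standards. Without nucleoplasm replicate 1 it was -0.65 and no longer called. Ndufa7 had 1964, 2014 and 1806 counts in chromatin and 4019.9, 4459 and 4177 in nucleoplasm, a log2 fold change of -1.13 ± 0.08 (SE). Ndufs1, the largest iron-sulfur subunit, had 6878, 6898 and 6045 in chromatin and 15505, 14064 and 14753 in nucleoplasm, a log2 fold change of -1.16 ± 0.09 (SE). Neither of these overlapped between fractions on the deposited scale.

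Ndufa4l2, placed in complex I by its name, was the member of that group not called. Its counts were 7.12, 4.19 and 8.33 in chromatin and 10.1 to 14.5 in nucleoplasm, also without overlap, but with a log2 fold change of -0.84 ± 0.42 (SE) and a limma adjusted p of 0.156. It was called lower with quantile normalization, at -2.24 and an adjusted p of 0.0108.

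The 8 Ndufaf genes encode factors that help to assemble complex I and are not part of the finished enzyme. All 8 were lower in chromatin, with a median log2 fold change of -0.81, and 1 of them by more than 4 fold. This was Ndufaf2 (chr13:108052589-108158655), whose counts were 198, 200.2 and 190.5 in chromatin and 806, 745 and 974 in nucleoplasm, a log2 fold change of -2.09 ± 0.13 (SE). Ndufaf8 followed at -1.91 ± 0.21 (SE) and Ndufaf3 at -1.61 ± 0.14 (SE).

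Ndufaf1 and Ndufaf5 were lower by smaller amounts, at -0.96 and -0.66 (limma adjusted p = 0.00144 and 0.00481), and with ERCC scaling they were at -0.23 and 0.075 and not called. The 3 smallest differences were those of Ndufaf4, Ndufaf6 and Ndufaf7. Ndufaf7, a mitochondrial methyltransferase, had 1514, 1374 and 1349 counts in chromatin and 1746, 1617 and 1747 in nucleoplasm. Its log2 fold change was -0.27 ± 0.09 (SE; limma adjusted p = 0.0412), the call was lost without chromatin replicate 2 or 3 or any 1 nucleoplasm library (-0.31 to -0.24), and the direction turned to 0.46 with ERCC scaling and 0.02 with quantile normalization. For Ndufaf6 the counts were 441, 432 and 446 in chromatin and 573, 559.7 and 575 in nucleoplasm, and for Ndufaf4 they were 1872, 1763 and 2162 against 2671, 2473 and 2949.8. Both sets of libraries were separate, and the log2 fold changes were -0.37 ± 0.08 and -0.48 ± 0.11 (SE), turning to 0.36 and 0.25 with ERCC scaling. Without nucleoplasm replicate 1 Ndufaf6 was not called (-0.37), and without chromatin replicate 1 Ndufaf4 was not (-0.46). The median level of the assembly factors in nucleoplasm was 474 normalized counts per kb of spliced length, beside 2389 for the complex I subunits. Spliced length is here the length of all annotated exons of a gene, merged over its transcripts. It can exceed that of any single messenger RNA, so levels per kb and their ranks depend on the annotation.

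Complex II, succinate dehydrogenase, is also an enzyme of the citric acid cycle and has no subunit encoded in the mitochondrion. Sdha, the flavoprotein, had 5697, 6057 and 3902 counts in chromatin and 15256, 14143 and 16829.6 in nucleoplasm, a log2 fold change of -1.58 ± 0.19 (SE; limma adjusted p = 7.44e-04). Sdhb, the iron-sulfur subunit, had 1873, 2146 and 1481 in chromatin and 8266, 8602 and 7366 in nucleoplasm, a log2 fold change of -2.15 ± 0.15 (SE; limma adjusted p = 1.05e-04). The membrane anchor Sdhc had 2777, 2971 and 2071 in chromatin and 6922, 7137 and 6094 in nucleoplasm, a log2 fold change of -1.38 ± 0.16 (SE; limma adjusted p = 6.59e-04). All 3 genes were lowest in chromatin replicate 3, and in none did the fractions overlap. The other anchor, Sdhd, had no locus of its own, since its exons lay in the assembled locus that matched Nkapd1.

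Complex III, the cytochrome bc1 complex, had 8 members, all lower in chromatin and 6 by more than 4 fold, with a median log2 fold change of -2.46. The lowest value of all members was that of Uqcrq (chr11:53427922-53430831), a small subunit next to cytochrome b. Its counts were 572, 619 and 246 in chromatin and 5207, 3134 and 3084 in nucleoplasm. The log2 fold change of -3.06 had the widest error of the called members (SE 0.41; limma adjusted p = 0.00133), chromatin replicate 3 being low and nucleoplasm replicate 1 high.

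Uqcr10 and Uqcr11, both small subunits, were close behind with narrower errors. Uqcr10 had 1016, 1264 and 1131 counts in chromatin and 6976, 7176 and 7166 in nucleoplasm, a log2 fold change of -2.65 ± 0.10 (SE). Uqcr11 had 429, 554 and 438 counts in chromatin and 2489, 3047 and 3164 in nucleoplasm, a log2 fold change of -2.61 ± 0.15 (SE).

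The larger complex III proteins were lowered less. Uqcrfs1, the Rieske iron-sulfur protein, changed by -2.07 ± 0.11 (SE) and Uqcrc1, a core protein, by -1.96 ± 0.16 (SE). Uqcrc2, the other core protein, had 6058, 5911 and 5359.8 counts in chromatin and 13799, 12311 and 14626 in nucleoplasm, a log2 fold change of -1.23 ± 0.10 (SE; limma adjusted p = 1.71e-04). Its libraries did not overlap, and the lowered call was lost with ERCC scaling, at -0.50.

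**Figure D2:**
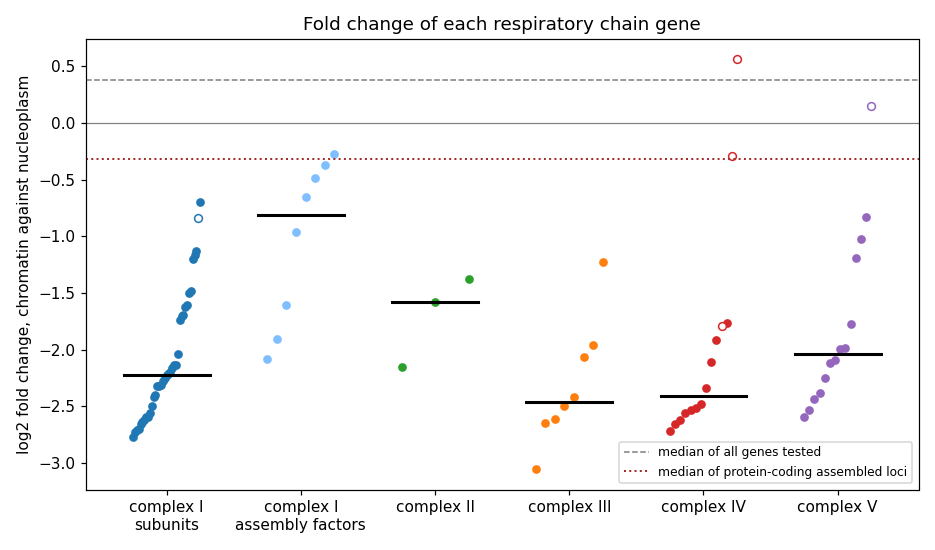
Log2 fold change, chromatin against nucleoplasm, of each member (points; filled, lower at an adjusted p under 0.05; open, not called), ordered by value within each group, with the group median as a bar. The group medians run from -2.46 in complex III to -0.81 in the complex I assembly factors, all below the medians of all genes tested (0.38, dashed) and of protein-coding assembled loci (-0.32, dotted).

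Complex IV, cytochrome c oxidase, had 14 members, of which 11 were lower in chromatin and 9 by more than 4 fold, with a median log2 fold change of -2.41. The 3 lowest were Cox6b1, Cox6a1 and Cox5a. Cox6b1, at the cytochrome c side, had 1312, 1696 and 1547 counts in chromatin and 9778, 10445 and 9619 in nucleoplasm, a log2 fold change of -2.72 ± 0.11 (SE; limma adjusted p = 2.62e-05). Cox6a1, whose promoter is shown above, had 1690.3, 2287 and 1388 counts in chromatin and 10872, 11955 and 10363 in nucleoplasm, a log2 fold change of -2.66 ± 0.19 (SE). Cox5a changed by -2.62 ± 0.16 (SE).

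Least lowered among those called were Cox7b on the X chromosome, Cox7a2l and Cox6c. Cox7b had 2531, 2593 and 2199 counts in chromatin and 9050.3, 8441 and 7498 in nucleoplasm, a log2 fold change of -1.77 ± 0.11 (SE). Cox7a2l, which links complexes III and IV in supercomplexes, changed by -1.91 ± 0.08 (SE) and Cox6c by -2.11 ± 0.19 (SE). In each of the 3 the fractions were separate.

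Several complex IV subunits exist as tissue isoforms, and levels per kb of spliced length showed which were present in HL1 nuclei. Cox4i1, the common form of subunit 4, reached 25194 ± 2128 normalized counts per kb in nucleoplasm (SD, n = 3), the highest mean of all members. Its hypoxia- and lung-related isoform Cox4i2 was at 2.03, 0 and 3.12 counts in chromatin and at 0, 0 and 2.90 in nucleoplasm, which are a few reads at most. No difference between fractions was detectable for Cox4i2 at this depth (limma adjusted p = 0.586).

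Subunits 6A, 7A and 8 have forms typical of heart and skeletal muscle. Both forms of 6A were present, Cox6a1 at 15760.2 ± 1158 and the muscle form Cox6a2 at 1651 ± 535 normalized counts per kb in nucleoplasm (SD, n = 3), a ratio of means of 9.55. Cox6a2 had 202, 298 and 158 counts in chromatin and 1221, 1427 and 719.7 in nucleoplasm, without overlap, and a log2 fold change of -2.34 ± 0.34 (SE; limma adjusted p = 0.0018). The muscle form Cox7a1 had 99.6, 153 and 76.0 counts in chromatin and 575, 744 and 517 in nucleoplasm, a log2 fold change of -2.51 ± 0.29 (SE; limma adjusted p = 6.92e-04). It could not be set against Cox7a2, which had no member locus. Both muscle forms were highest in replicate 2 and lowest in replicate 3 of each fraction, and so was the common form Cox6a1. In replicate 3 of each fraction 10 of 11 cardiomyocyte markers were also lowest, and the part of those markers in these levels was not tested. With replicates 1 and 2 alone the log2 fold changes were -2.42 for Cox6a2 and -2.40 for Cox7a1, both called.

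Subunit 8 differed from these in its muscle form. Cox8a, the common form, was at 21503 ± 2495 normalized counts per kb in nucleoplasm (SD, n = 3), while the muscle form Cox8b had 0, 1.05 and 1.04 counts in chromatin and 1.01, 1.20 and 0.725 in nucleoplasm. These Cox8b values are those of single reads, and the libraries overlapped (limma adjusted p = 0.607). Between the paired subunits 5, Cox5a was at 11191 ± 967 and Cox5b at 3619.7 ± 279 normalized counts per kb in nucleoplasm (SD, n = 3), with log2 fold changes of -2.62 and -2.48.

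Cox7b2, a testis-type form, was the remaining complex IV member not called. Its counts of 8.13, 6.29 and 21.9 in chromatin lay below the 26.3, 26.4 and 83.3 in nucleoplasm, and replicate 3 was the highest in both fractions. The log2 fold change was -1.79 ± 0.67 (SE; limma adjusted p = 0.0721), and with the replicate number as a block the adjusted p was 0.00719 and the gene was called lower. It was also called without chromatin replicate 3, at -2.29.

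**Figure D3:**
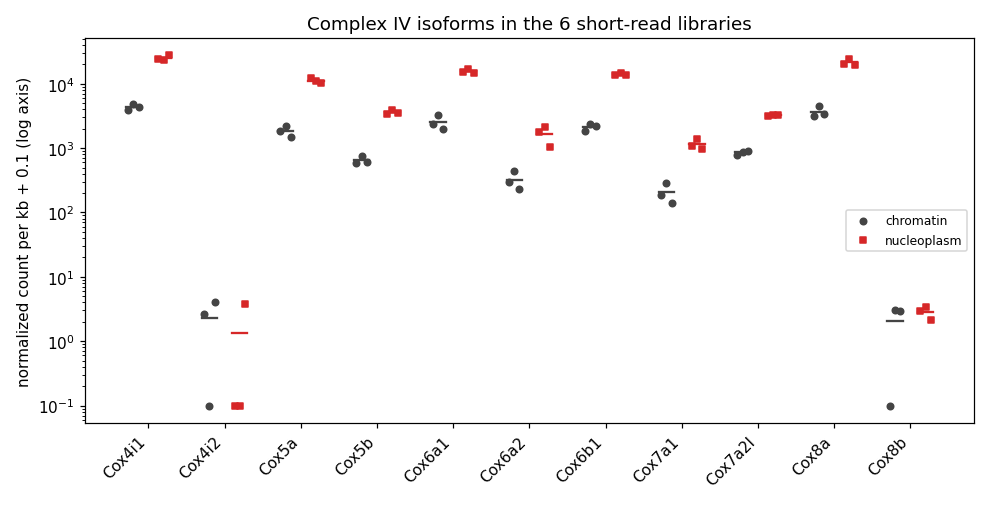
Normalized count per kb of spliced length + 0.1 (log axis) of complex IV isoforms in the 3 chromatin (circles) and 3 nucleoplasm (squares) libraries, with bars at the means. Cox4i2 and Cox8b lie at a few reads at most in both fractions. The muscle forms Cox6a2 and Cox7a1 are present and separate between fractions, Cox6a2 below Cox6a1. Cox7a2 had no member locus and is not shown.

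Complex V, the ATP synthase, had 14 members, 13 lower in chromatin and 7 by more than 4 fold, with a median log2 fold change of -2.04. Atp5b, the catalytic beta subunit, had the highest counts of all members. They were 24772, 29274 and 19259 in chromatin and 104879, 104861 and 104945 in nucleoplasm, for a log2 fold change of -2.12 ± 0.17 (SE; limma adjusted p = 1.61e-04). The nucleoplasm libraries were nearly equal for this gene, and its spread lay nearly all in the chromatin fraction.

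Per kb of spliced length, Atp5b was at 24757 ± 10.4 normalized counts in nucleoplasm (SD, n = 3), below Cox4i1 by less than the SD of Cox4i1. Cox8a came next at 21503 ± 2495, then Atp5a1, the alpha subunit, at 16235 ± 444, and Cox6a1 at 15760.2 ± 1158. Atp5a1 and Cox6a1 differed by less than the SD of Cox6a1. Over the 80 members with a mean of at least 100, the highest nucleoplasm level was 104 times the lowest.

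The 3 lowest fold changes in complex V were those of Atp5mpl, Atp5g3 and Atp5o. Atp5mpl, a small membrane subunit, had 808, 989 and 1354 counts in chromatin and 5414, 5725 and 7693 in nucleoplasm, a log2 fold change of -2.59 ± 0.23 (SE). Here replicate 3 was the highest library of both fractions. Atp5o, in the stalk, changed by -2.44 ± 0.10 (SE).

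The genes of the ring subunit c were far apart. Atp5g3 had 2167, 2339 and 1927 counts in chromatin and 13653, 11015 and 12622 in nucleoplasm, a log2 fold change of -2.53 ± 0.12 (SE; limma adjusted p = 3.19e-05). Atp5g2 had 2197, 2468 and 1460.2 in chromatin and 2803, 4448 and 3556 in nucleoplasm, a log2 fold change of -0.83 ± 0.25 (SE; limma adjusted p = 0.0375). The chromatin counts of both genes were alike in size, and the nucleoplasm counts of Atp5g3 were the higher. The difference between both fold changes was not tested, and the call for Atp5g2 was lost without chromatin replicate 1 (-0.90) or 3 (-0.60) or nucleoplasm replicate 2 (-0.66) or 3 (-0.82). The remaining gene of this subunit, Atp5g1, was no member, because its locus overlapped the annotated gene with a Jaccard index of 0.419, and the log2 fold change of that locus was -2.44.

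Atp5s was the member nearest to equality in both fractions. It encodes the coupling factor B protein, which is not a core part of the enzyme. Its counts of 614, 518 and 513 in chromatin and 472, 465 and 549 in nucleoplasm overlapped, with a log2 fold change of 0.14 ± 0.12 (SE; limma adjusted p = 0.401). Scaled to the ERCC standards it was the 1 member called higher in chromatin, at 0.88. Atp5j, coupling factor 6, was between these, with 2202, 2341 and 1853 counts in chromatin and 4505, 4524 and 3948 in nucleoplasm and a log2 fold change of -1.02 ± 0.12 (SE).

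The members differed in length, and the fold change went with it. Of the members with a mean of at least 100, the 23 whose locus spanned under 5 kb had a median log2 fold change of -2.50, the 44 of 5 to 20 kb -2.15, and the 13 of 20 kb or more -1.23. Protein-coding assembled loci of the same mean had medians of -1.62, -0.86 and -0.01 in these classes. Thus in each class the median of the members lay lower than that of all coding loci of like span, members included, by 0.88 to 1.28 on the log2 scale. All 23 short and all 13 long members were lower in chromatin, and 43 of the 44 between, where 84.6%, 32.5% and 64.6% of the coding loci of those classes were.

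Exon number gave the same order. It was counted after merging the overlapping exons of all annotated transcripts of a gene, so it can differ from that of a single transcript. Members with 1 to 4 exons had a median log2 fold change of -2.52, those with 5 to 8 exons -1.91 and those with 9 or more -1.23, against -1.20, -0.76 and -0.08 for coding loci. Across the 80 members Spearman's rho of the log2 fold change was 0.51 with the log10 span and 0.59 with the number of exons, and across 9855 coding loci 0.53 and 0.43. The genes share the same 6 libraries, and span, exon number and spliced length go together, so these values are descriptions.

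Exceptions to the order were visible. Ndufaf2 spanned 106067 bases and was more than 4 fold lower. Ndufaf4 had 2 exons by this merged count and a span of 7022 bases, and it changed by -0.48.

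**Figure D4:**
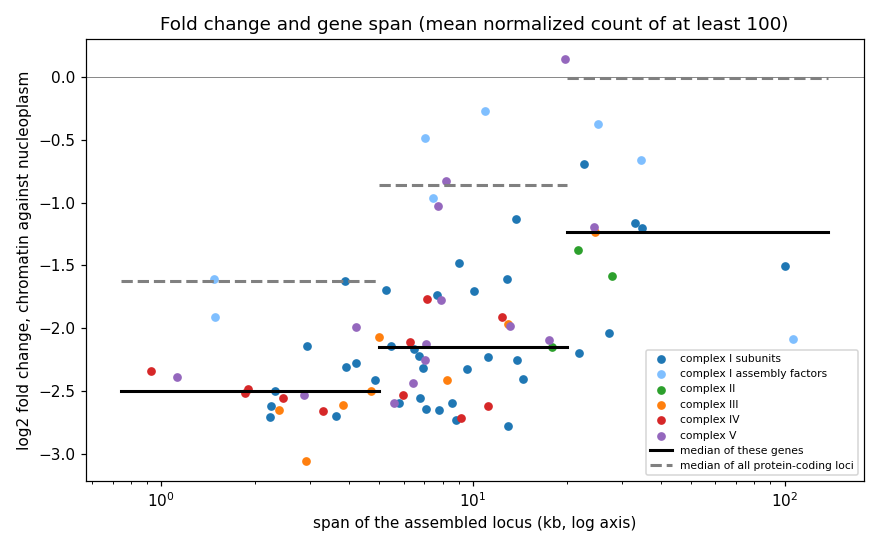
Log2 fold change, chromatin against nucleoplasm, against the span of the assembled locus (kb, log axis) for the 80 members averaging at least 100 normalized counts, coloured by complex. Solid bars are the medians of the members in 3 span classes (-2.50, -2.15 and -1.23) and dashed bars those of all protein-coding loci (-1.62, -0.86 and -0.01).

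Reads of these genes can also come from copies. At least 95% identity over at least 200 bases with another annotated gene was found for 22 members, in 17 of them with a pseudogene, and their counts are uncertain to that extent. The median log2 fold change was -2.29 in these and -2.08 in the 62 members without such a copy, of which 57 were lower in chromatin.

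Of 93 coding symbols that fit the rule by name, 9 had no member locus. Atp5e, Sdhd, Cox7a2 and Ndufa13 lay in loci that matched the neighbouring genes Prelid3b, Nkapd1, Tmem30a and Yjefn3, with log2 fold changes of those loci of -2.05, -1.79, -0.63 and -2.09. The loci over Atp5g1, Atp5l and Cox7c overlapped their genes with a Jaccard index below 0.5 and changed by -2.44, 0.01 and -0.85. Cox6b2 and Cox8c had entries for single transcripts only. These values belong to merged or partial loci and were not counted above.

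The long reads gave a separate view of the chromatin RNA. The TPM of transcript models lying inside each gene, within 50 bases, on its strand was summed for each library. Of the 84 members, 77 had a TPM above 0 in at least 1 library and 72 in both, with a median over members of 60.6 in replicate 1 and 65.7 in replicate 2. Over the 72 members Spearman's rho between replicates was 0.85. Reference transcripts carried 75.4% of this TPM, and the longest model covered at least 90% of the gene in 64 members.

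The highest means on the gene's strand were those of Cox6a1, Cox4i1 and Cox8a. Cox6a1 had a TPM of 403 in replicate 1 and 366 in replicate 2, and Cox4i1 of 342 and 375, each close between replicates. Cox8a had 87.1 and 533, a wide gap, while models on the opposite strand inside Cox8a had 943 and 110.1. Summed over both strands Cox8a had a TPM of 1030 and 643. More of it lay on the opposite strand in replicate 1 and on the gene's strand in replicate 2. The order of genes depended on the strands counted. With both strands summed Atp5b, at 614 and 561, lay above Cox6a1, at 573 and 481.

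Opposite-strand models were common. They were found above 0 inside 55 members and held more TPM than the gene's own strand in 19. Inside the gene Ndufa1, with a TPM of 0 on its strand, had 279 and 193 on the other. Atp5f1 had 2.57 and 3.97 on its strand and 105 and 188 on the other. These low values depend on the rule that a model lies inside the gene. Same-strand models overlapping by any amount had a TPM of 32.8 and 22.2 for Ndufa1 and 151 and 80.1 for Atp5f1. In the 50 members with TPM on their strand in both libraries and such a model, the SD of the log2 ratio of the replicates was 0.98 on the gene's strand and 0.59 with both strands summed. In all 72 members with TPM on their strand in both libraries it was 1.48 and 1.33. The cDNA reads of this assembly carried no strand of origin, so RNA antisense to these genes cannot be told apart from their own.

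7 members were listed at 0 in both long-read libraries, namely Ndufa1, Ndufa11, Ndufb7, Ndufaf1, Ndufaf3, Cox4i2 and Cox8b. With models that overlap the gene by any amount, 6 of them had a TPM above 0 and Cox8b alone stayed at 0. Cox4i2 and Cox8b were also the members with a few reads at most in the short-read libraries. The short-read counts of the other 5 were 154 or more in every library.

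Models that touched no annotated exon lay inside 17 members, 72 of 200 models in all, and carried 2.76% of the TPM. The median span of these genes was 21769 bases against 6729 in the other 67. Most were in Ndufaf2, with 20 such models of 25, and in Ndufs4, an accessory subunit gene of 100354 bases, with 18 of 19. In Ndufaf2 they carried a TPM of 28.7 of 46.9 in replicate 1 and 57.0 of 94.9 in replicate 2. Atp5s, the 1 member not called among those with a mean of at least 100, had 4 models, all of them without an exon.

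Across the 77 members with a TPM, Spearman's rho of the mean TPM with the short-read level per kb was 0.50 in chromatin and 0.54 in nucleoplasm. Both kinds of library come from the same line but from different preparations, and the points share their gene models.

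**Figure D5:**
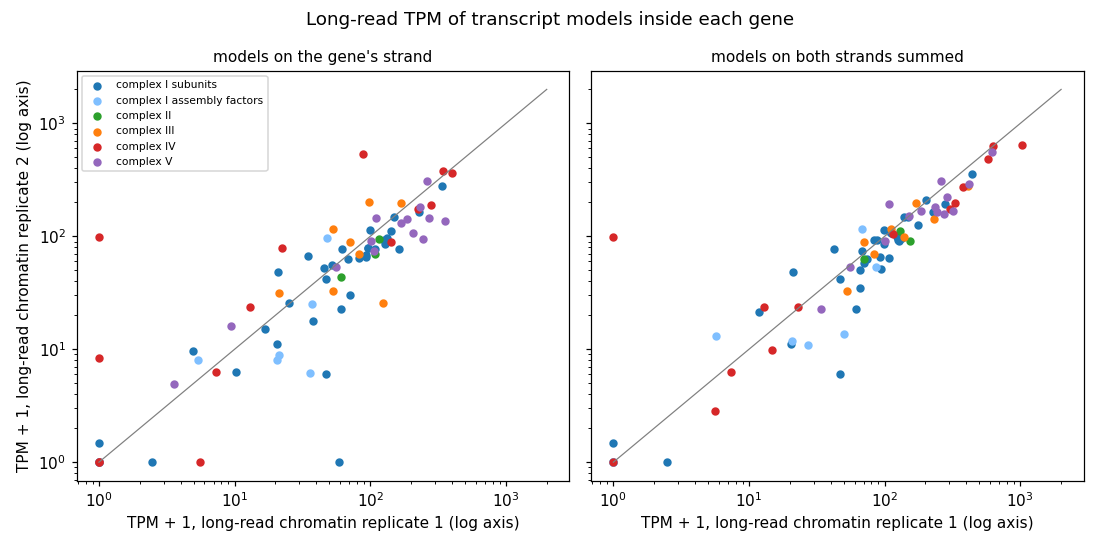
TPM + 1 of transcript models inside each member in long-read chromatin replicate 2 against replicate 1 (log axes, line of equality), for models on the gene's strand (left) and on both strands summed (right). Over the 50 members above 0 in both libraries with models on both strands, the SD of the log2 ratio is 0.98 on the left and 0.59 on the right. Over all 72 members above 0 in both libraries on the gene's strand it is 1.48 and 1.33.

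The other genes of the pathway were taken from a list of 57, of which 46 had an assembled locus. Of these, 35 were lower in chromatin, 4 by more than 4 fold, 8 were higher and 3 were not called, with a median log2 fold change of -0.95. Among all protein-coding assembled loci 43.4% were lower, 6.06% by more than 4 fold, and 25.5% were higher. The electron carriers were lower, Cyc1 of complex III by -1.83 ± 0.21 (SE) and Cycs, cytochrome c, by -1.99 ± 0.13 (SE). The 4 lowered by more than 4 fold all encode small assembly factors, Cox14 at -2.56, Uqcc2 at -2.38, Uqcc3 at -2.24 and Coa3 at -2.09.

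Of the 8 genes higher in chromatin, 4 encode assembly factors and 4 regulators. Ttc19, a complex III assembly factor, had 10782, 10134 and 12656 counts in chromatin and 1822, 1719.9 and 2209.8 in nucleoplasm, a log2 fold change of 2.55 ± 0.14 (SE; limma adjusted p = 4.17e-05). Atpaf1, an assembly factor of the ATP synthase, rose by 1.98 ± 0.12 (SE) and Cox20, a chaperone of complex IV, by 1.98 ± 0.35 (SE). Cox11, a copper chaperone, rose by 0.83, a call lost without chromatin replicate 1 (0.92) or nucleoplasm replicate 1 (0.74) or 2 (0.82), and the regulators Ppargc1b, Yy1, Gabpb1 and Nrf1 by 1.11, 0.55, 0.52 and 0.49. The call for Yy1 was lost with quantile normalization (0.19, adjusted p = 0.131). Among 8 regulators with a locus, 4 were lower and 4 higher, beside 43.4% and 25.5% of protein-coding assembled loci. With ERCC scaling 16 of the 46 genes were lower and 8 higher.

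The mitochondrially encoded subunits were kept apart, since they are made in another compartment. 9 of 13 had an assembled locus, all 9 were lower in chromatin and 8 by more than 4 fold, with a median log2 fold change of -3.23. The mitochondrial chromosome took 0.0441% to 0.0962% of the chromatin and 0.553% to 0.702% of the nucleoplasm libraries, and the part of co-purified mitochondria or cytoplasm in the member values was not tested.

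The libraries held 91657034 to 121773350 recovered reads. The fractionation controls were apart as labelled, Gapdh at -2.07 and B2m at -2.67 lower in chromatin, Malat1 at 3.82 and Pvt1 at 3.93 higher. Of 14 atrial cardiomyocyte markers 11 had an assembled locus, with summed normalized counts of 1324580 to 2711760 in chromatin and 296288 to 483908 in nucleoplasm. These sums were mostly Ttn, the giant sarcomere protein titin, at 1094140 to 2359210 in chromatin. Of the 11, 4 were higher in chromatin, 3 (Myl7, Tnni3 and Sln) were lower and 4 were not called, with a median log2 fold change of -0.74. Nppa, the atrial peptide, was low, at means of 20.7 and 76.6. Of 6 fibroblast markers 4 had a locus, 3 of them lower in chromatin, with sums of 120627 to 173752 in chromatin and 253737 to 460521 in nucleoplasm, mostly Col1a1. Endothelial, macrophage and smooth muscle markers had a locus for 2 of 5, 1 of 5 and 2 of 3 genes, none called, and no locus for Pecam1, Cdh5, Vwf, Ptprc, Adgre1, Cd68, Fcgr1 or Cnn1. Entries of the last 3 for single transcripts averaged 67.1, 1.63 and 144 normalized counts in sum.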

How the data were processed

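Short-read libraries of HL1 chromatin and nucleoplasm RNA (3 each) and long-read libraries of chromatin RNA (2) were analysed. The members and gene lists were chosen with earlier results of these data known. The authors aligned short reads to mm10 with HISAT2 2.1.0, assembled and re-estimated transcripts with StringTie, and deposited gene counts divided by DESeq2 size factors (a signal scale of normalized counts, without scaling for length). For long reads, aligned with minimap2, the authors deposited StringTie TPM. Dividing each short-read value by the smallest step of its library gave whole reads for 100% of values (tolerance 0.001). Having only 3 libraries per fraction limits precision.

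Fold changes came from a limma 3.58.1 fit in R 4.3.3, trended by mean level, to log2(normalized count + 1) over genes above 0 in at least 1 library, adjusted after Benjamini-Hochberg at 0.05. Fold changes of low genes are understated on this scale. edgeR 4.0.16 and DESeq2 1.42.0 on recovered reads, other pseudocounts, filters, scalings, a replicate block and leaving out each library were alternatives. A fit to replicates 1 and 2 alone was added after the data were seen. The functions were tested on simulated data. Members named in the text were, in each complex, the 3 lowest and 3 highest fold changes at a mean of at least 100, all Sdh genes, tissue isoforms, members not called, the 5 highest nucleoplasm levels per kb and the 3 highest TPM; others were named after their values were seen. Same-numbered libraries of both fractions deviated together (correlations of 0.119, 0.102 and 0.249, against -0.158 to 0.0631 between numbers). The number comes from the titles. Copies were found with blastn 2.17.0. Pathway, marker and control lists were counted as lists. Promoters came from RefSeq. The 18 members without a window were not searched. 1 gene is not reported by name here.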

Additional observations from a re-analysis of the deposited data

How the results depend on the processing

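The count of members lower in chromatin was 66 to 80 under every alternative in which all members entered (71 of the 76 members with a Jaccard overlap of at least 0.8), and 76 to 78 on leaving out 1 library. The scaling bore most on the results. With ERCC scaling 1 member was higher, 2 were more than 4 fold lower and 16 other pathway genes were lower, and the median log2 fold changes were -1.41 for all members, -1.49 for complex I subunits, -0.078 for the assembly factors, -0.85 for complex II, -1.73 for complex III, -1.68 for complex IV and -1.31 for complex V. Under it Ndufv2 (0.039), Ndufaf4 (0.25), Ndufaf5 (0.075), Ndufaf6 (0.36), Ndufaf7 (0.46) and Cox8b (0.040) turned positive. With quantile normalization Ndufaf7 (0.021) and Cox4i2 (-0.25) turned, and the medians of complex I subunits and assembly factors were -2.10 and -0.58, while those of the assembly factors were -0.92 with edgeR and with TMM factors. The cause of these shifts beyond the change of scale was not tested.

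On leaving out 1 library in turn, the medians ranged from -2.36 to -2.07 for complex I subunits and from -2.59 to -2.25 for complex IV, and Cox8b ranged from -0.46 to 0.055, turning positive without chromatin replicate 1. A library left out gave 45 to 52 members more than 4 fold lower. With the replicate block, pairing same-numbered libraries, 80 members were lower, Cox7b2 being added, and no other call named in the text changed. For long reads the median TPM over members, 66.6, was 90.8 with both strands summed and 73.3 with any overlap, and 72 members were above 0 in both libraries on the gene's strand. Depth limits Cox4i2 and Cox8b, which rest on a few reads, and Cox7b2 and Ndufa4l2, which have low counts, and 2 long-read libraries of 1 fraction allow no comparison between fractions.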
